A study of Mus musculus with 13 samples.

Results

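SMAD3 binding was compared between genes in mouse embryonic fibroblasts (MEFs) with and without induction of MKOS, a cassette that expresses Oct4, Sox2, Klf4 and c-Myc from 1 transcript. The comparison used 6 of the 13 samples of the series: SMAD3 ChIP-seq from cells given doxycycline (Dox+, n = 3) and from cells without it (Dox-, n = 3), collected on day 3. OCT4 peaks set beside the SMAD3 sites came from OCT4 ChIP-seq of 3 further samples, all Dox+. The series has no OCT4 sample of Dox- cells. The MEFs came from a TNG MKOS mouse line of mixed 129 and CD1 background that carried 1 Nanog allele with GFP, a dox-responsive MKOS-ires-mOrange cassette at the Sp3 locus and a reverse transactivator driven by the ubiquitous CAG promoter. Cells of both groups had also been infected with a retrovirus carrying a constitutively active Smad3 (Smad3CA), so the Dox- cells are MEFs with forced SMAD3 activity and not untreated MEFs. All cells in the dishes were transgenic, they were kept in ESC medium with LIF, and the labels give dox at 1 µg/ml for Dox+ and none for Dox-. The methods of the study give a lower dox concentration for reprogramming and add vitamin C to the medium, and the label value is used here. ChIP-seq measures no RNA, so the cell type could not be checked by its markers, and cells that had responded to dox could not be told apart from cells that had not. No source used here says whether replicates were separate cultures, so p-values below measure only the spread between these samples, which may be technical.

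SMAD3 carries signals of TGF-β and activin from their receptors to the nucleus, where it binds DNA weakly through a short GTCTG or CAGAC element and is placed largely by partner factors of the cell type. In fibroblasts its known targets include collagen and other matrix genes, genes of the actin cytoskeleton and inhibitors that feed back on the pathway. In pluripotent cells it has been found with OCT4. MKOS induction starts the exchange of the fibroblast program for an epithelial and then a pluripotent one, so the comparison asks which genes took up or gave up SMAD3 in that early phase.

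A site is a region that the authors' table of Dox+ against Dox- SMAD3 binding lists as different. It is called gained where the authors' mean log2 concentration was higher in Dox+ and lost where it was lower, and the difference given for a site is Dox+ minus Dox- on that log2 scale. These are group means of the authors, with no value per replicate, so single sites and genes carry no error and could not be retested. Each site was assigned to the gene whose body lay nearest to its centre. Of the 13217 regions present in at least 2 of the 6 replicate lists, 1176 (8.9%) were gained and 904 (6.84%) were lost. The listed differences nearest to the authors' limit of 1 were 1.01 at Nsmaf and Zfp664 and -1.0 at Xylt1 and 2810410L24Rik. Of the gained sites 276 (23.5%) had a Dox- mean at the lowest value in the table (0.44), and 30 lost sites (3.32%) had a Dox+ mean at the lowest value (0.20), where a difference depends on that floor.

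The DNA at sites that moved in opposite directions within 1 gene is shown for Smyd3, Krt80 and Slit3, described below. The windows of Rsad2, with the strongest loss, and of Rplp1, a gained site past the end of a ribosomal protein gene, are added as examples of 1 class on each side. Each line gives the central 120 bases of a site on the plus strand of GRCm38 (mm10). Capitals mark a match on either strand to CAGAC (read as GTCTG on the other strand), TGANTCA (the AP-1 element) or GGGNGTGG (the KLF element), and no matches overlap in these windows.
Smyd3 gained, chr1:179087388-179087507: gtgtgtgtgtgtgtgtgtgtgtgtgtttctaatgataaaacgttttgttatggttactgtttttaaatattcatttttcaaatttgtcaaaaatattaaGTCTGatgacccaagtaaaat
Smyd3 lost, chr1:179046356-179046475: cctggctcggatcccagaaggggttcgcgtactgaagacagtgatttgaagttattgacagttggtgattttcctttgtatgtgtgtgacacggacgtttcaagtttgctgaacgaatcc
Krt80 gained, chr15:101366107-101366226: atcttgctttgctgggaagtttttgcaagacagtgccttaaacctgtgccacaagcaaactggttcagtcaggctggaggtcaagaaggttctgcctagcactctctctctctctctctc
Krt80 lost, chr15:101368965-101369084: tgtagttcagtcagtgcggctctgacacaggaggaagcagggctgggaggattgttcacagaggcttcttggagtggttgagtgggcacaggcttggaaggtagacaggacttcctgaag
Slit3 gained, chr11:35523935-35524054: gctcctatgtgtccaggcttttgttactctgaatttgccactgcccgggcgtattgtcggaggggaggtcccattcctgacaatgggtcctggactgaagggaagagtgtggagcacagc
Slit3 lost, chr11:35156856-35156975: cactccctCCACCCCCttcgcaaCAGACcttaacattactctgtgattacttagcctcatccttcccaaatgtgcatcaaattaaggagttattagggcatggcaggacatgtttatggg
Rsad2 lost, chr12:26441988-26442107: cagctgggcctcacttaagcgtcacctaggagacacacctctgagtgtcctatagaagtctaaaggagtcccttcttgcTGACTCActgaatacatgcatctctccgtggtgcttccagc
Rplp1 gained, chr9:61910395-61910514: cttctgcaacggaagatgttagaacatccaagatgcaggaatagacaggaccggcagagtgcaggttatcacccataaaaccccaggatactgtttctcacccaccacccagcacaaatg

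Among all 13217 central windows of this length, 22.9% held CAGAC on either strand, 3.80% TGANTCA, 7.76% GGGNGTGG and 0.386% the octamer ATGCAAAT. CAGAC was found in 24.8% of gained and 25.2% of lost sites. In genes with both directions it was found in 18 of 63 gained sites (28.6%) and 15 of 64 lost sites (23.4%). The windows are the midpoints of broad regions, not summits, so a match is only a description of the letters there.

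The 6 replicate lists differed widely in length, as did the number of genes they named. The Dox+ lists had a peak at 413, 14380 and 8494 genes (replicates 1, 2 and 3), and the Dox- lists at 1604, 12390 and 3696 genes. The log2 number of genes averaged 11.85 for Dox+ (SD 2.76, n = 3) and 12.03 for Dox- (SD 1.48, n = 3), a difference of -0.18 that was well within the spread (exact two-sided permutation p = 1, where 3 against 3 lists cannot go below 0.1). Only 113 genes had a peak in all 6 lists. At 420 peaks per list, taken by q-value, pairs of lists of the same group shared 2.91% to 8.01% of the genes of the first list, and pairs across groups 2.13% to 10.4%. Dox+ replicate 1 stood apart with 420 peaks, which fell on a gained site of 66 genes and on a lost site of 0 genes. The deposited peak lists give no read totals, so the depth behind each list is unknown.

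Most genes with a listed site had only 1, so they could have only 1 direction. Of 10518 genes with a region in at least 2 lists, 1097 (10.4%) had a gained site, 829 (7.88%) a lost site, 1873 (17.8%) either and 53 (0.504%) both. That left 1044 genes with gained sites only and 776 with lost sites only. Of all genes with a site, 1705 had 1 site, while 168 genes had 2 or more and together held 18.0% of all sites. Of the 168 genes, 59 had gained sites only, 56 lost sites only and 53 both (31.5%), as the bars by number of sites show. Long genes take more sites by nearest-gene assignment: the median gene length was 24.1 kb with 1 site, 60.0 kb with 2 or more and 121 kb with both directions, against 22.3 kb for genes with a region but no listed site.

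**Figure D1:**
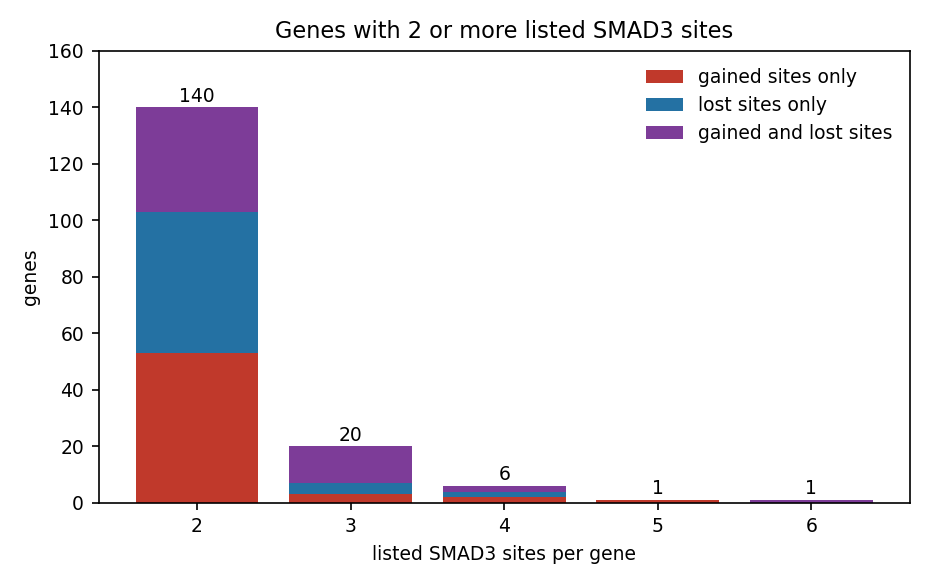
Number of genes (y axis) by the number of listed SMAD3 sites assigned to them (x axis, genes with 2 or more), stacked by direction. Most of these genes, 140 of 168, had 2 sites, and the only gene with 6 sites, Slit3, had both directions.

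Peaks of the other group were present at many genes that gained or lost sites. Of the genes with gained sites only, 429 (41.1%) had no peak in any Dox- list and 164 (15.7%) had a peak in at least 2 of them. Of the genes with lost sites only, 103 (13.3%) had no peak in any Dox+ list and 328 (42.3%) had a peak in at least 2 of them. Among all 10518 genes with a region, 10.6% had no peak in any Dox- list and 34.7% a peak in at least 2 of them, while 2.38% had no peak in any Dox+ list and 70.6% a peak in at least 2. The lists of the groups thus differed in the same order for all genes, and the 15.7% and 42.3% are not read as a difference between gain and loss. At the sites themselves, 1113 gained sites were called in 2 Dox+ lists and 49 in all 3. For lost sites 547 were called in 2 Dox- lists, 69 in all 3 and 288 in only 1. The sites were chosen on these same libraries, so this describes support and is not independent evidence.

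The genes with the most sites moved differently. Slit3, which encodes a secreted axon guidance cue, had 3 gained and 3 lost sites along its 587 kb. The lost sites lay upstream and toward the start, at -54915, 35692 and 46088 bp from the gene start, with differences of -1.80, -2.57 and -2.47. The gained sites lay farther in, at 297566, 402771 and 406160 bp, with differences of 2.58, 2.88 and 2.49, and 1 of them carried an OCT4 peak. Peaks assigned to Slit3 numbered 0, 6 and 3 in the Dox+ lists and 0, 8 and 2 in the Dox- lists, so its number of peaks overlapped between the groups while their places differed. 2010111I01Rik, a protein-coding gene of 361 kb, had 5 sites, all gained, with differences from 1.21 to 2.03.

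Genes with several gained sites included Cd9, Lemd1, Stmn1, Miat, Trp53cor1 and Zmynd8. Cd9, a tetraspanin of the cell membrane that is abundant on pluripotent and epithelial cells, had 4 gained sites with differences of 1.64, 2.46, 2.37 and 2.52. Its peaks numbered 0, 7 and 6 in the Dox+ lists and 0, 1 and 0 in the Dox- lists. Lemd1 had 4 gained sites of 1.59 to 3.40 and no peak in any Dox- list, against 0, 7 and 5 peaks in the Dox+ lists. Stmn1, which encodes the microtubule-destabilising protein stathmin, gained 3.24 at its start and 3.17 downstream, and was in all 3 Dox+ lists and in Dox- list 2. Trp53cor1, the p53-induced long noncoding RNA lincRNA-p21, gained at both of its sites (3.29 and 3.60). Zmynd8, a chromatin reader, gained at adjacent sites of 2.75 and 3.99. Miat, a long noncoding RNA, gained 4.37 and 1.91. Dox- lists 1 and 3 had no peak at any of these 6 genes, Dox+ list 1 had one only at Stmn1, and Dox- list 2 had 6 peaks at Zmynd8 against 13 and 3 in Dox+ lists 2 and 3.

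Genes with several lost sites included Ppm1h and Tgfbr3. Ppm1h, a protein phosphatase, lost at 4 sites in the gene body (-3.66, -3.57, -1.99 and -1.40). The site of -3.57 was at the floor of the Dox+ mean. Tgfbr3, the betaglycan co-receptor that presents TGF-β to its signalling receptors, lost at 4 sites (-1.61, -2.47, -1.49 and -2.19), of which 1 lay within 1 kb of a transcript start. Tgfbr3 peaks numbered 0, 8 and 1 in the Dox+ lists and 0, 16 and 4 in the Dox- lists, so peaks remained in Dox+ list 2, and the groups overlapped. Other genes with 2 or more lost sites and the largest mean loss were Plekha2, D7Ertd443e, the noncoding 1700108F19Rik, and Gm23040 and Gm24327, which are short models of under 0.2 kb with sites outside them.

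The 53 genes with both directions held 63 gained and 64 lost sites. Smyd3, a lysine methyltransferase, lost at 2 intragenic sites (-2.80 and -2.37) and gained at another (3.51) that carried an OCT4 peak. Rad51b, a homologous recombination factor, lost at 1 site (-2.79) and gained at another in the same gene (3.08) that carried an OCT4 peak. Krt80, an epithelial keratin, lost at its start (-2.63) and gained inside the gene (3.57). Shank3, a scaffold of synapses, lost at a start (-2.67) and gained toward its end (2.44). Fbln1, a matrix protein of elastic fibres, lost at 2 sites (-2.29 and -1.21) and gained (3.20) at a site called in all 3 Dox+ lists. Gsn, which encodes the actin-severing protein gelsolin, lost in the gene (-2.89) and gained at an internal start (2.09). Nfix, a nuclear factor I gene, had 2 gained (1.13 and 3.00) and 2 lost sites (-1.68 and -1.08), and Mir99ahg, a long noncoding RNA that hosts microRNAs, had 1 gained and 2 lost sites. Gm20388, with 3 gained and 1 lost site, is a gene model of 4435 kb that spans many other genes, and Gm12495, with 2 gained and 1 lost site, is a pseudogene with every site outside it.

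**Figure D2:**
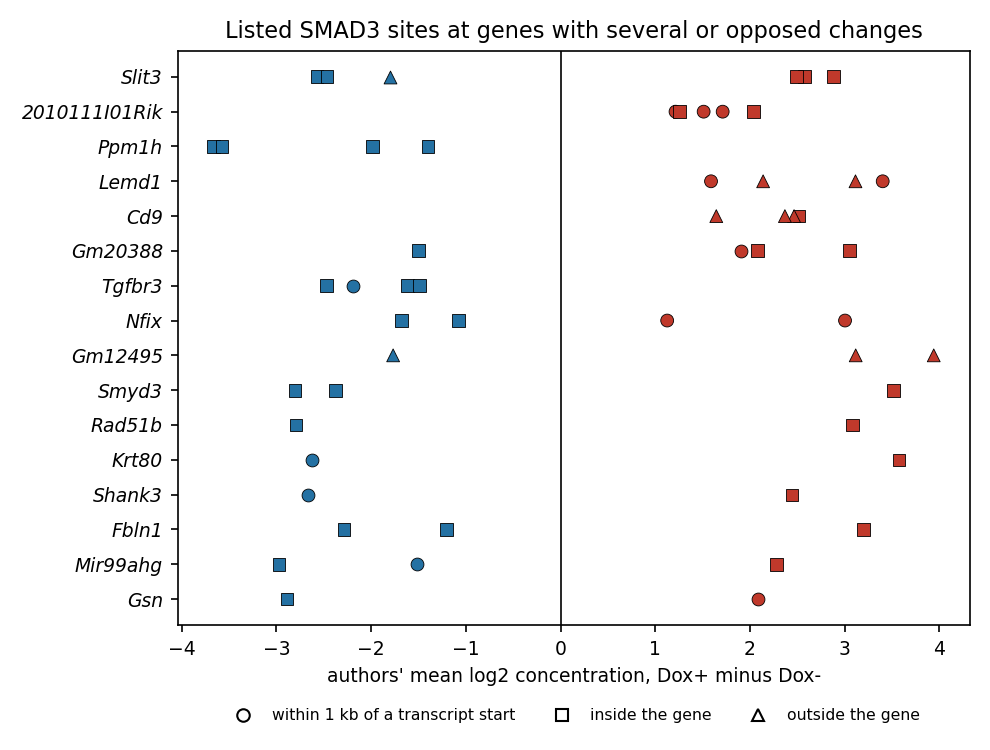
Difference of the authors' mean log2 concentration, Dox+ minus Dox-, at each listed site (x axis) of the 10 genes with the most sites and the 8 genes with the largest opposed changes (y axis, 16 genes, as Slit3 and Smyd3 are in both). Red marks are gained and blue lost sites, and shapes give the place of the site. Slit3 and Nfix have marks on both sides, and Cd9, Lemd1 and 2010111I01Rik only to the right.

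The place of the sites was described beside that of all sites, with no test. In the 53 genes, 13 of 63 gained sites (20.6%) and 26 of 64 lost sites (40.6%) lay within 1 kb of a transcript start. Over all sites the shares were 41.1% of gained and 42.1% of lost, and over genes with several sites of 1 direction 29.7% and 30.0%. The median distance to a start was 12902 bp for these gained and 2956 bp for these lost sites. A merged OCT4 peak lay on 13 of the 63 gained sites (20.6%), against 150 of all 1176 gained sites (12.8%), and on 0 of the 64 lost sites, which allows a share of up to 4.69%. It lay on 0 of all 904 lost sites as well (up to 0.332%). Such limits, here and below, are 3 divided by the number of sites or genes, close to an upper 95% limit for independent draws. Members of lists chosen with earlier results known are not such draws, so the limits only show how little a count of 0 can exclude. The nearest gained and lost sites of a gene were 24.0 kb apart at the median, from 1.77 to 1420 kb, and 12 of the 53 pairs were less than 10 kb apart. At 23 of the 63 gained sites the Dox- mean was at the floor, while none of the 64 lost sites had a Dox+ mean there. Sites and genes are not replicates, so these shares have no test, and OCT4 was measured in Dox+ cells alone.

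Neighbouring sites tended to move alike at short range, whether or not they had the same gene. Neighbours assigned to the same gene had the same direction in 151 of 204 pairs (74.0%), and neighbours of different genes in 1023 of 1856 pairs (55.1%). These pairs differ in spacing, with medians of 17428 and 526912 bp. Within 10 kb the shares were 83.3% of 72 same-gene pairs and 96.6% of 29 different-gene pairs. Between 10 and 50 kb they were 71.9% and 70.9%. Beyond 200 kb they were 42.9% of 7 pairs and 51.8% of 1342 pairs.

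Among the gene lists, epithelial genes and the KLF and SP family lay on the gained side. Of 16 epithelial genes with a region, 6 had a gained site (37.5%, against 10.4% of all genes). A lost site was found at 0 (7.88% of all genes), where 0 of 16 allows a share of up to 18.8%. The largest gain was at the start of Cldn3, a tight-junction claudin (3.87), followed by F11r, the junction adhesion molecule A (3.74), and Krt8, a keratin of simple epithelia (3.49). The remainder were Pkp1, a desmosomal plakophilin (2.84), St14, the protease matriptase (2.17), and Spint2, its inhibitor (1.55). The Cldn3, F11r, Krt8, Pkp1 and St14 sites were at the floor of the Dox- mean. Outside the list, the keratin gene Krt80 had a gained and a lost site and the epithelial protease gene Tmprss2 a lost one (-3.23), both named after their values were seen. Cldn3 was called in Dox+ lists 1 and 2, Krt8 and F11r in Dox+ lists 2 and 3, and none of the 3 in a Dox- list. Of 18 KLF and SP genes with a region, 6 had a gained (33.3%) and 0 a lost site (up to 16.7%). They were Klf10, an early response gene of TGF-β (3.54), Klf12 (2.89), Sp8 (2.39), Sp4 (2.23), Klf3 with 2 sites (2.20 and 1.53), and Sp6 (2.01). OCT4 peaks lay on 3 of the 7 KLF and SP sites and on none of the 6 epithelial sites. With sites assigned to protein-coding genes only, 7 KLF and SP genes had a gained and 2 a lost site. The 0 lost genes of that family thus depended on the assignment.

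Ribosomal protein and histone genes also had gained sites without lost ones. Of 80 ribosomal protein genes with a region, 20 had a gained site (25%), with a median difference of 1.58, and 0 had a lost site (up to 3.75%). At a difference of at least 2 only 2 of the 20 remained, Rplp1 (2.44) and Rpl11 (2.16). Of 35 histone genes 6 had a gained site (17.1%), from 1.10 at Hist1h2an to 2.13 at Hist2h3c1, and 0 a lost site (up to 8.57%). The replicate lists did not show this order for ribosomal protein genes. Those genes made up 0.242%, 0.542% and 0.871% of the genes named by the Dox+ lists and 0.935%, 0.605% and 0.785% by the Dox- lists. The mean share was thus lower in Dox+ (0.552% against 0.775%, and 0.807% against 0.889% at equal list length), while the groups overlapped. Histone shares averaged 0.314% in Dox+ and 0.187% in Dox-, also with overlap.

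In the interferon response and inflammation lists more genes had a lost than a gained site. Of 29 interferon response genes with a region, 10 had a lost site (34.5%) and 0 a gained one (up to 10.3%). Of all genes, 7.88% had a lost and 10.4% a gained site. The strongest loss of all was at Rsad2, the antiviral enzyme viperin (-5.10), where the Dox+ mean was at its floor and the Dox- mean was 5.29. Ifit3 (-2.78) and Ifit1 (-2.34), which encode proteins that bind viral RNA, followed, and then Psmb8 (-2.11), Isg15, Ddx58, Gbp2, Bst2, Dhx58 and Mx2, the last at -1.07. At a difference of at least 2 the interferon list had 4 lost genes, and by nearest transcript start it had 9 lost and 1 gained. Peaks assigned to Rsad2 numbered 0, 0 and 0 in the Dox+ lists and 0, 2 and 1 in the Dox- lists, and those of Ifit1 0, 0 and 0 against 0, 2 and 3. Of 24 inflammation and NF-κB genes, 8 had a lost site (33.3%), led by the chemokine gene Cxcl5 (-2.76) and Nfkb1 (-2.70). A gained site was found at 2 (8.33%), Il11 (3.29) and Ptgs2 (2.56). With the same limit of 2 the inflammation list was even, with 2 gained and 2 lost genes, and it had 2 gained and 4 lost where sites needed 2 lists of the higher group.

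Matrix, cytoskeletal and axon guidance genes had sites in both directions, with losses at more genes. Of 45 collagen and matrix genes, 14 had lost sites only, 4 gained sites only and 1 (Fbln1) both. A lost site was thus found at 33.3% and a gained one at 11.1%, against 7.88% and 10.4% of all genes. Losses were seen at Lox, which cross-links collagen (-2.59), Mmp14 (-2.11), Col4a2 (-2.05), Col6a1 (-1.94), Sparc (-1.88), both sites of Col1a2 (-1.69 and -1.53) and Col1a1 (-1.10). Gains were seen at Thbs3 (2.79), Col4a1 (2.78), Col18a1 (2.50) and Col2a1 (2.46). At a difference of at least 2, 5 matrix genes had a gained and 4 a lost site, the reverse of the order without that limit. Of 44 actin and focal adhesion genes, 9 had a lost site (20.5%), with Tln2, a talin, at -3.24. A gained site was found at 5 (11.4%), with Myh9 and Tpm1 in both counts. Of 34 neural and axon guidance genes, 11 had a lost site (32.4%), including Ncam1 (-2.78) and Epha2 (-2.51). A gained site was found at 4 (11.8%), with Slit3 and Sema3c in both counts. The neural list had, at a difference of at least 2, 3 lost and 2 gained genes, and with 2-list support 8 and 4. With 2-list support the matrix list had 8 lost and 5 gained genes. Of the genes named by single lists, the neural share averaged 0.442% in Dox+ and 0.375% in Dox- (0.720% and 0.415% at equal list length). The actin share averaged 0.440% and 0.630% (0.444% and 0.323% at equal list length). For both lists the groups overlapped.

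**Figure D3:**
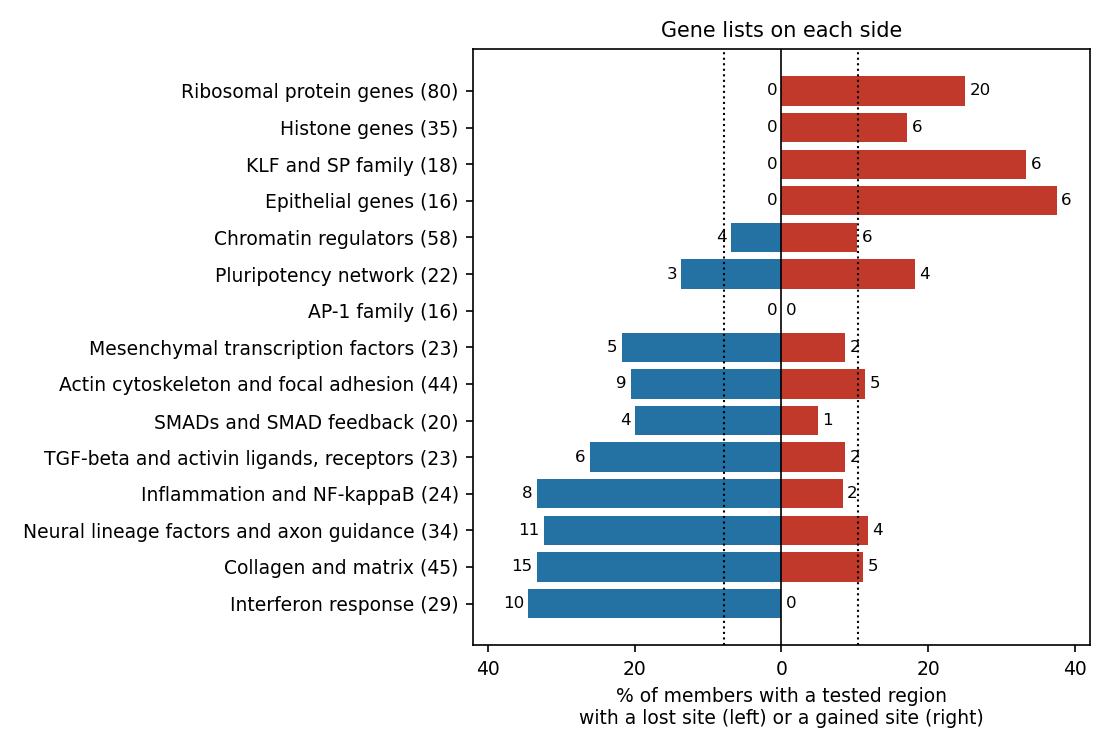
Percent of the members with a tested region (number in parentheses) that had a gained site (red, right) or a lost site (blue, left), with the number of genes at each bar. A gene with both counts on each side. Dotted lines mark the shares of all 10518 genes, 10.4% gained and 7.88% lost. Ribosomal protein genes reach 25% on the gained side, and interferon response genes have bars on the lost side alone.

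The TGF-β pathway itself was represented mostly by losses. Of 23 genes of ligands, receptors and antagonists, 6 had a lost (26.1%, against 7.88% of all genes) and 2 a gained site (8.70%, against 10.4%). The ligand Gdf3, a TGF-β superfamily member of pluripotent cells, gained (2.70) at an OCT4 peak. Among proteins that hold or block ligands, Fstl3, an activin antagonist, lost at its start (-3.18), Fst lost past its end (-1.61), Ltbp1 (-2.57) and Ltbp3 (-2.49) lost at starts, and Ltbp4 gained (1.32). Among receptors, Tgfbr3 lost as given above and Acvr1b, a type I activin receptor, lost once (-1.91). Of 20 SMAD and feedback genes, 4 had lost sites (20%), and each site was in the gene body. Ski, a co-repressor that binds SMADs, lost at 1 site (-2.75), and Smad3 lost at 2 sites (-2.37 and -1.57). Smad7 (-1.71), an inhibitory SMAD, and Pmepa1 (-1.36), an inhibitor of SMAD activation, had 1 lost site each, while Ldlrad4 had a gained one (1.28). Smad7 had 0, 8 and 1 peaks in the Dox+ lists and 0, 4 and 4 in the Dox- lists, so the groups overlapped. With sites required in at least 2 lists of the higher group, the ligand and receptor list had 4 genes lost and 2 gained, and with protein-coding genes only 10 and 2.

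Other lists had sites in both directions or none. Of 23 mesenchymal transcription factor genes, 5 had a lost site (21.7%, against 7.88% of all genes), among them Twist2 (-2.15) and Snai1 (-1.41). A gained site was found at 2, Hmga2 (3.47) and Tcf4 (2.81), the latter with a lost site as well. At a difference of at least 2 the order was 2 gained and 1 lost. Of 22 pluripotency genes, 4 had a gained site (18.2%), namely Gdf3, Tet3 (2.56), Tet2 (2.41) and Lin28b (1.97). A lost site was found at 3 (13.6%), namely Dppa2 (-2.46), Tcf7l1 (-1.35) and Dnmt3a (-1.01). Of 58 chromatin regulators, 6 had a gained (10.3%) and 4 a lost site (6.90%), near the 10.4% and 7.88% of all genes. Kdm6b, an H3K27 demethylase, was at 2.85. None of the 16 AP-1 genes had a listed site among 21 regions, which allows a share of genes of up to 18.8%. Solute carriers (17 gained and 15 lost of 145) and Zfp genes (7 and 7 of 225) were balanced, and the Zfp share was below that of all genes on both sides. Classical fibroblast targets (2 and 3 of 22), Wnt (3 and 4 of 30), growth factor and MAPK (5 and 5 of 37), cell cycle (3 and 3 of 43) and RUNX, CEBP, NFI and TEAD genes (5 and 5 of 21) had similar numbers on both sides. For the RUNX, CEBP, NFI and TEAD genes that was 23.8% on each side, above the 10.4% gained and 7.88% lost of all genes.

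A share of the sites lay just past the end of genes. The centre of 136 gained sites (11.6%), 61 lost sites (6.75%) and 514 regions not listed (4.62%) lay within 5 kb past the annotated end of the assigned gene and more than 1 kb from any transcript start. Of the 711 regions there, 19.1% were gained and 8.58% lost. The shares were 5.16% and 4.07% of the 9355 regions within 1 kb of a start, and 8.90% and 6.84% of all 13217 regions. Places inside a gene also made up more of the gained (29.8%) and lost sites (28.5%) than of the regions not listed (11.3%). Places farther away made up 14.5%, 19.4% and 6.32%. A larger share than among the regions not listed was thus common to gained and lost sites at places away from starts. Between gained and lost sites, the gained share was larger past gene ends (11.6% against 6.75%). It was similar inside genes (29.8% against 28.5%) and smaller farther away (14.5% against 19.4%). The window was chosen after the values of the ribosomal protein genes were seen, and so were the genes named in this paragraph and the next. Of the 21 gained ribosomal protein sites 18 lay past the gene end, at 989 to 2914 bp with a median of 1589 bp. Among regions of ribosomal protein genes, 18 of the 36 past an end and 2 of the 76 within 1 kb of a start were gained. Rplp1 had its gained site 2829 bp past its end, and Rps20 1244 bp past.

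Other lists had few regions past a gene end. Both epithelial regions there, at Krt8 and F11r, were gained. For collagen and matrix genes 5 of 9 regions were lost and 0 gained, at Lox, Col6a1, Sparc, Col1a2 and Bgn, and for interferon response genes 4 of 7 were lost and 0 gained. The lists do not cover their classes: Matn2 (2.36) and Adamtsl5 (1.97), which encode matrix proteins outside the list, had gained sites past their ends, and Tmprss2, a serine protease of epithelia, had a lost one (-3.23). By size, the largest gains past an end after F11r and Krt8 were at Ddah2 (3.45) and Gm44171 (3.44), and the largest losses after Rsad2 and Tmprss2 were at D7Ertd443e (-3.03), Tmem176b (-3.01) and Atf6 (-2.97). The Dox- means of F11r, Krt8 and Ddah2 and the Dox+ mean of Rsad2 were at the floor, so their sizes depend on it. These shares over sites have no test. In single lists the share of peaks past a gene end was 1.19%, 6.50% and 6.92% in Dox+ and 2.42%, 5.87% and 3.49% in Dox-, so the groups overlapped (difference 0.944 percentage points, exact two-sided permutation p = 0.8, SD 3.19 and 1.77, n = 3 each).

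**Figure D4:**
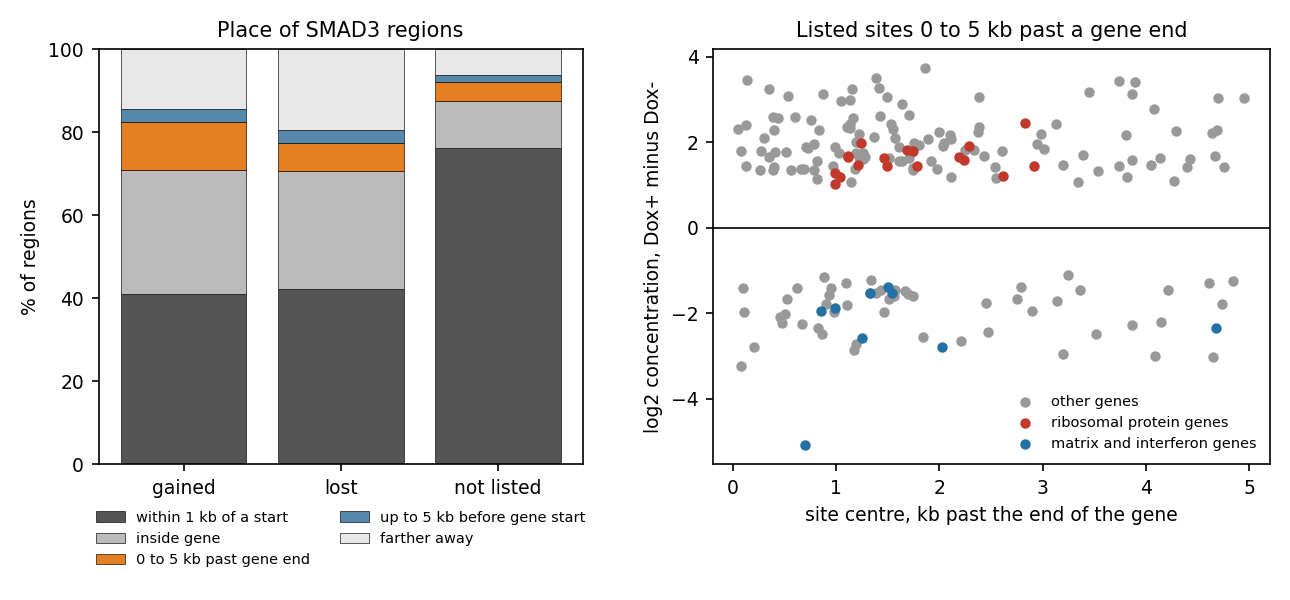
Left, percent of gained, lost and not listed SMAD3 regions by place (stacked bars to 100). Right, difference of the authors' mean log2 concentration (y axis) of each listed site within 5 kb past a gene end, by its distance in kb from that end (x axis), with ribosomal protein genes in red and matrix and interferon genes in blue. The orange share is 11.6% for gained, 6.75% for lost and 4.62% for not listed regions, and the red points lie above 0 and the blue ones below it.

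Gene lists grouped into themes were compared over the replicate lists, 1 value per list. Genes of the fibroblast theme made up 0.969%, 0.981% and 1.22% of the genes named by the Dox+ lists (1.06% ± 0.144, SD, n = 3) and 1.93%, 1.18% and 1.87% of those named by the Dox- lists (1.66% ± 0.418, SD, n = 3). Dox+ was lower in every pairing of equal replicate numbers, but Dox+ list 3 lay above Dox- list 2. The difference was -0.601 percentage points (exact two-sided permutation p = 0.2, Benjamini-Hochberg p = 0.7 over 7 comparisons). As this test cannot go below 0.1, it cannot decide the question. Genes of the target state, which joins epithelial and pluripotency genes, made up 0.484%, 0.341% and 0.412% in Dox+ and 0.374%, 0.242% and 0.271% in Dox- (difference 0.117, exact two-sided permutation p = 0.2, Benjamini-Hochberg p = 0.7). For the TGF-β superfamily the shares were 1.94%, 0.438% and 0.506% in Dox+ and 0.998%, 0.452% and 0.839% in Dox- (difference 0.198, exact two-sided permutation p = 0.9). This difference rested on Dox+ replicate 1 and was -0.291 without it. With protein-coding genes only, the fibroblast difference was -0.691 and the target-state difference 0.106. Both were at the lowest value the test allows (exact two-sided permutation p = 0.1). With 420 peaks in every list the fibroblast difference was -0.283 (exact two-sided permutation p = 0.3) and the TGF-β difference 0.510 (exact two-sided permutation p = 0.4). With the replicate numbers as pairs, sign-flip tests gave exact p from 0.25, the smallest that 3 pairs allow, to 1.

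**Figure D5:**
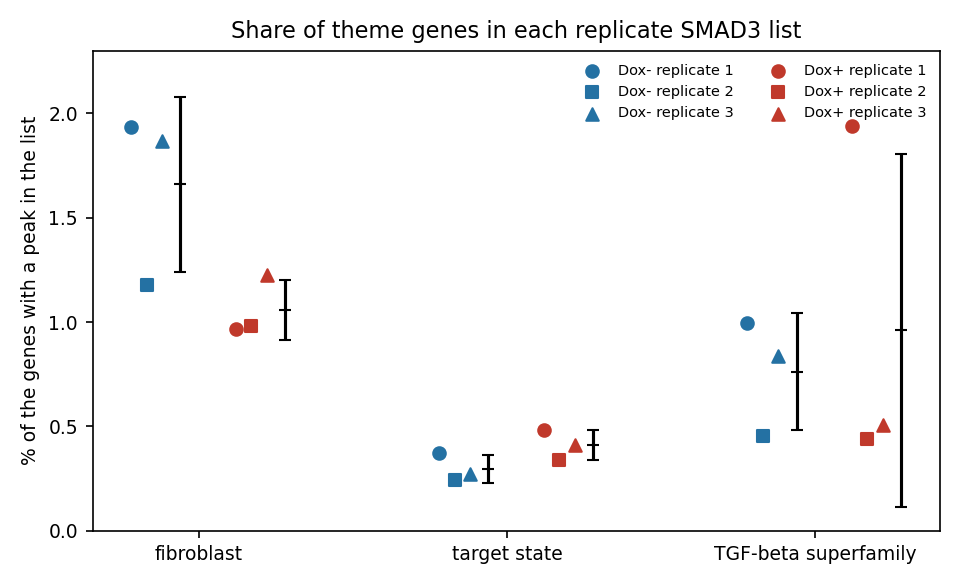
Share of the genes with a peak in a list that belong to a theme (y axis, percent), for each Dox- (blue) and Dox+ (red) replicate list, with the mean and SD of the 3 lists in black. In the fibroblast theme Dox- lists 1 and 3 lie above all Dox+ lists and Dox- list 2 lies below Dox+ list 3.

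Of the 33 lists and families, 5 (15.2%) had shares that did not overlap between the groups of lists. Epithelial genes made up 0.242%, 0.167% and 0.200% of the Dox+ and 0.0623%, 0.0726% and 0.0541% of the Dox- genes. Interferon response genes made up 0%, 0.181% and 0.235% in Dox+ against 0.312%, 0.299% and 0.433% in Dox-. Collagen and matrix genes made up 0.242%, 0.355% and 0.424% against 0.686%, 0.444% and 0.568%. Hox cluster genes were higher in Dox+, and muscle, adipose, cartilage and bone factors higher in Dox-. These shares rest on few genes, with 1, 24 and 17 epithelial genes in Dox+ lists and 1, 9 and 2 in Dox- lists. At equal list length 3 of 33 (9.09%) did not overlap, and only the collagen and matrix genes and the muscle, adipose, cartilage and bone factors were among both sets. The order of the interferon response genes was reversed there, on very few genes. Their shares were 0%, 0.292% and 0.532% in Dox+ (0, 1 and 2 genes) against 0.485%, 0% and 0% in Dox- (2, 0 and 0 genes).

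By presence alone, 1132 of 11846 genes (9.56%) had peaks in 2 or 3 of the Dox+ lists but were missing from every Dox- one, and 216 (1.82%) had the reverse. Of these, 22 and 12 were in all 3 lists of their group. Among the 22, Rtel1, a helicase of telomeres, had best fold enrichments over input of 3.46, 3.01 and 7.43 in the Dox+ lists, and Krt2, a keratin gene, 2.60, 2.92 and 3.10. Gm38232, 1520401A03Rik and Yju2 were the others with the highest enrichment. Among the 12, Rpl7a had best enrichments of 3.20, 3.13 and 1.96 in the Dox- lists, and Nnt, a mitochondrial transhydrogenase, 2.96, 3.14 and 2.21, followed by Gm11084, Ppp4r3b and Gsto1, none of which had a listed site. The counts rested on list length. They were 25 and 822 without Dox+ replicate 2, 33 Dox+ genes without Dox+ replicate 3, 4718 and 17 without Dox- replicate 2, and 32 Dox- genes without Dox- replicate 3. With 420 peaks in every list they were 41 and 46.

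In Dox+ cells, the only ones with OCT4 ChIP-seq (n = 3), OCT4 peaks were more frequent at genes that gained SMAD3. OCT4 at these genes in Dox- cells is unknown. A merged OCT4 region was assigned to 205 of 1044 genes with gained sites only (19.6%, exact 95% interval 17.3 to 22.2), 50 of 776 with lost sites only (6.44%, 4.82 to 8.41), 18 of 53 with both (34.0%, 21.5 to 48.3) and 512 of 8645 with no listed site (5.92%, 5.43 to 6.44). The intervals cover counting error only. In the 3 OCT4 replicate lists the shares were 12.4%, 10.8% and 2.01% for gained-only genes and 3.35%, 3.35% and 0.387% for lost-only genes, so each list had the same order. The OCT4 region lay on a listed SMAD3 site itself in 134 of the gained-only and 12 of the genes with both. Genes with both directions are longer, and gene length was not held equal here.

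Protein-coding genes took 82.9% of gained, 73.2% of lost and 87.6% of the regions not listed. Long noncoding RNA genes took 11.3%, 17.4% and 8.43%. Of the genes whose sequences the introduced constructs carry or interrupt, only Smad3 had listed sites, in the gene body at 41503 and 55209 bp from its start. Klf4, Myc, Sox2 and Sp3 had peaks in 2 or more lists and no listed site, Pou5f1 had 1 peak in Dox+ list 2, and Nanog had none in any list. Reads from the introduced Klf4, Myc, Sox2, Pou5f1 and Smad3 copies can align to the exons of these genes, so peaks there cannot be told apart from the constructs.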

How the data were processed

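SMAD3 ChIP-seq lists of 3 Dox+ and 3 Dox- samples were grouped by dox treatment as the labels give it. The authors trimmed reads, aligned them to mm10 with Bowtie2, kept reads with a mapping quality of at least 40, removed duplicates and called broad peaks with MACS2 2.1.0 against input (tools and versions from the submitters' processing notes and the methods of the study). OCT4 peaks were narrow peaks of the 3 Dox+ OCT4 samples, which the authors called at a q-value of 0.01 on each replicate and on the merged replicates. Entries of the deposited peak lists carry a ratio of ChIP to input (fold) and a −log10 q-value. The deposited DiffBind 1.16.3 table holds a log2 mean concentration per group, and lists sites at an FDR up to 0.1 with an absolute log2 fold of at least 1. Its columns of fold, p-value and FDR, which hold the authors' own comparison, were not used.

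The regions the authors could test were rebuilt by joining peaks of the 6 lists that shared at least 1 bp and keeping those in at least 2 lists. All 2080 listed sites were among the 13217 regions. Sites and peaks were assigned by their centre to the nearest GENCODE vM21 gene body, with protein-coding genes preferred where bodies overlapped, and no distance limit. Named genes were those with the most sites (10), the largest opposed changes (8), the largest mean change among genes with several sites of 1 direction (6 per direction), the 3 largest in each list or family, the 5 per group by presence and all genes of the constructs. Other members of a list that the text names were chosen after their values were seen. The members and the 22 gene lists and 11 symbol families were chosen with earlier results of these data known. Values per list were compared by exact two-sided permutation tests, and by sign-flip tests over equal replicate numbers. Correlations of deviations between equal numbers were 0.150, 0.364 and 0.144, each above 0.1, so the numbers were taken to pair the samples by that check alone. Unequal numbers gave -0.267 to 0.149, and the highest of these, Dox+ 3 with Dox- 1, was above the value of Dox+ 3 with Dox- 3. The peak lists give no depth. Sequences came from the GRCm38 reference. Assignment, merging and tests were tested on simulated data. Python 3.11.15, numpy 2.4.6, pandas 2.3.3, scipy 1.17.1, pysam 0.24.0 and matplotlib 3.10.9 were used. Distance measure, distance limit, gene class, size of change, list support, q-value and list length were varied.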

Additional observations from a re-analysis of the deposited data

How the results depend on the processing

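Counts of genes depended on the size required of a change. With a difference of at least 2 there were 560 genes with gained sites only, 297 with lost sites only, 49 with several sites and 9 with both directions. Genes with both directions were 83 when sites were assigned to protein-coding genes only and 35 when a site needed 2 lists of its higher group. Genes called by presence in Dox- alone were 118 with protein-coding genes only, 34 at a −log10 q-value of at least 2 and 46 at equal list length, and the Dox+ counterpart was 41 at equal list length. Leaving out 1 list at a time gave 25 to 4718 genes for Dox+ and 17 to 822 for Dox-.

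Some differences between the groups of lists changed sign. No test could decide on them, as the exact two-sided permutation p cannot go below 0.1 and the sign-flip p not below 0.25. At a −log10 q-value of at least 2 the difference was 0.38 for log2 genes per list, -4.38 percentage points for the share of peaks nearest to a protein-coding gene and -0.302 for target-state genes. The protein-coding share was -0.762 by nearest transcript start and -0.623 within 10 kb. Over the lists left out, log2 genes per list ranged from -1.16 to 1.40, peaks per gene from -0.0893 to 0.240, the share within 1 kb of a start from -14.4 to 6.25, the protein-coding share from -3.39 to 3.11, the TGF-β share from -0.291 to 0.459, the fibroblast share from -0.842 to -0.465 and the target-state share from 0.0808 to 0.156. At equal list length the fibroblast share was -0.283 and the TGF-β share 0.510, and at a −log10 q-value of at least 2 the TGF-β share was 0.0721. Pairing by replicate number (the replicate block) left the differences as they were, for example -0.601 for the fibroblast share with a sign-flip p of 0.25, the lowest possible. The site table holds group means, so no list could be left out of the counts of gained and lost genes.

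Of alternatives added after the data were seen, 2 reversed a list. At a difference of at least 2, gained minus lost genes were 1 for collagen and matrix and 1 for mesenchymal transcription factors, and 0 for inflammation. The gained minus lost share of sites past a gene end was 4.82 percentage points, 2.97 with a window of 2 kb, 5.26 with 10 kb and 4.85 for protein-coding genes only. Peak lists without read totals limit what absence from a list can show.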
